A study of Mus musculus with 56 samples.

Results

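The 7 genes described here, Myh11, Acta2, Tagln, Cnn1, Mylk, Notch3 and Rgs5, mark the smooth muscle cells and pericytes that wrap blood vessels. They were taken by symbol from the 57010 genes of a count table made from the gastrocnemius, a fast calf muscle, of mice aged 20 to 22 weeks. In HuR knockout mice the Elavl1 gene was floxed, so that Cre could remove its product, the RNA-binding protein HuR, and in controls it was not. Mice of both genotypes expressed the ribosomal protein L10A tagged with GFP after Cre recombination, where Cre was under the Mlc1f promoter, which belongs to a fast-fibre myosin light chain gene. RNA was taken from the isolated tagged ribosomes (tagged-ribosome RNA, which the labels call ribosomal) and from the whole homogenate (total RNA). Each RNA type was sequenced from 7 female knockouts, 7 female controls, 7 male knockouts and 7 male controls, 56 libraries in all. The text on the series speaks of 7 males and 7 females, whereas the sample labels number 7 mice for each sex and genotype. The labels were followed, and p-values measure the spread between libraries so numbered. The title of total library 13 of the male knockouts reads RRNA, and its other labels put it with total RNA.

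Smooth muscle cells contract when myosin light chain kinase phosphorylates the light chain of smooth muscle myosin, which then pulls on actin. The genes of this apparatus are switched on together by serum response factor and its partner myocardin, which bind CArG boxes in DNA, and in vessels by Notch signals read through the DNA-binding protein RBP-J. Pericytes sit on capillaries, are plentiful in skeletal muscle and carry less of the contractile apparatus. None of the 7 genes is a marker of the mature muscle fibre, the cell in which the Mlc1f promoter is active.

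Promoters are shown for a structural gene, a receptor and a pericyte marker. The choice followed tagged-ribosome RNA of females, where Acta2 was called higher in labelled knockouts and Rgs5 did not pass the test. Notch3 was too low for the count filter there, and its higher values in labelled knockouts are a description. The sequences are the 250 bases before the RefSeq start in build GRCm38.p6, read 5′ to 3′ on the strand of the gene, and capitals mark motif matches. The Acta2 window lies at chr19:34255374-34255623 on the minus strand, the Notch3 window at chr17:32166891-32167140 on the minus strand and the Rgs5 window at chr1:169655251-169655500 on the plus strand.
Acta2: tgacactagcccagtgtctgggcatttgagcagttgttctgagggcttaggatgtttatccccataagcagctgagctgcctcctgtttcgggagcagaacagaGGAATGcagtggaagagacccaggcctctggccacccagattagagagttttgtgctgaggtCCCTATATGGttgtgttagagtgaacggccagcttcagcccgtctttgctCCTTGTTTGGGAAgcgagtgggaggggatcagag
Notch3: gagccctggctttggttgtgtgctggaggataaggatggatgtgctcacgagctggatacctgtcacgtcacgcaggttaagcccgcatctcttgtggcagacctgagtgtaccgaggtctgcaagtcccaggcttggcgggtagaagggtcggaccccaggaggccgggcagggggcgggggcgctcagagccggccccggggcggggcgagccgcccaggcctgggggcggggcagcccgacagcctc
Rgs5: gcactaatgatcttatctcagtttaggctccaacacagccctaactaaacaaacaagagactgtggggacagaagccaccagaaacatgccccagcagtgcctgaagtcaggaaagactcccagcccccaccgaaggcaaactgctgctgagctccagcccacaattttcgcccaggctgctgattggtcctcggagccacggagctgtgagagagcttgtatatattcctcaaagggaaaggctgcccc

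Both strands were searched for the CArG box with at most 1 G or C in its core, for the RBP-J core TGGGAA and for GGAATG, the core bound by TEAD factors. Acta2 held CArG boxes 84 to 75 and 34 to 25 bases before the start, an RBP-J core 27 to 22 bases before it that overlaps the second box, and a TEAD core 146 to 141 bases before it. None of these motifs was in the Notch3 or Rgs5 window. In the windows not shown, Mylk had a TEAD core 158 to 153 bases before its start and Cnn1 had none of the motifs. Among all 32851 promoter windows of this length, 8.59% held such a CArG box, 21.6% the RBP-J core and 12.6% the TEAD core. These are letters in a window, with no measurement of binding. Of the 7 genes, 5 had a RefSeq promoter entry, and the others are Myh11 and Tagln.

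Tagged-ribosome libraries held 0.16 to 3.58 M gene counts and total libraries 2.43 to 5.85 M, where M is 1000000. Female labelled knockouts were shallow in tagged-ribosome RNA, at 0.491 to 1.21 M counts, against 0.423 to 3.06 M in female controls, and male labelled knockout 2 held 0.16 M. Counted reads outside genes made up 6.53 to 12.5% in tagged-ribosome libraries of female labelled knockouts and 5.001 to 9.999% in those of female controls. Elavl1 itself did not pass the test in either sex or RNA type: its log2 fold change of labelled knockout over control was 0.27 (adjusted p = 0.206) and 0.29 (adjusted p = 0.234) in tagged-ribosome RNA of females and males, and -0.01 and -0.14 in total RNA (adjusted p = 0.969 and 0.477). The reads come from the 3′ end of transcripts, which can lie outside the floxed stretch, so this does not check the deletion and the genotypes are given as labelled.

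All 7 genes were scarcer in tagged-ribosome RNA than in total RNA of controls. Rgs5 is a GTPase-activating protein for G protein alpha subunits and a pericyte marker. In female controls it had 93.1 to 224 CPM (median 121) in tagged-ribosome RNA and 461 to 579 CPM (median 524) in total RNA. CPM are gene counts per 1000000 counts, scaled by the trimmed mean of M-values (TMM) over all libraries. Notch3, the receptor that vessel smooth muscle uses to read Notch ligands, had 0 to 4.48 CPM (median 2.78) in tagged-ribosome RNA and 17.65 to 31.5 CPM (median 28.1) in total RNA of female controls. The ranges of the RNA types did not overlap for either gene. Here and below, the share of all genes whose groups do not overlap was not counted.

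**Figure D1:**
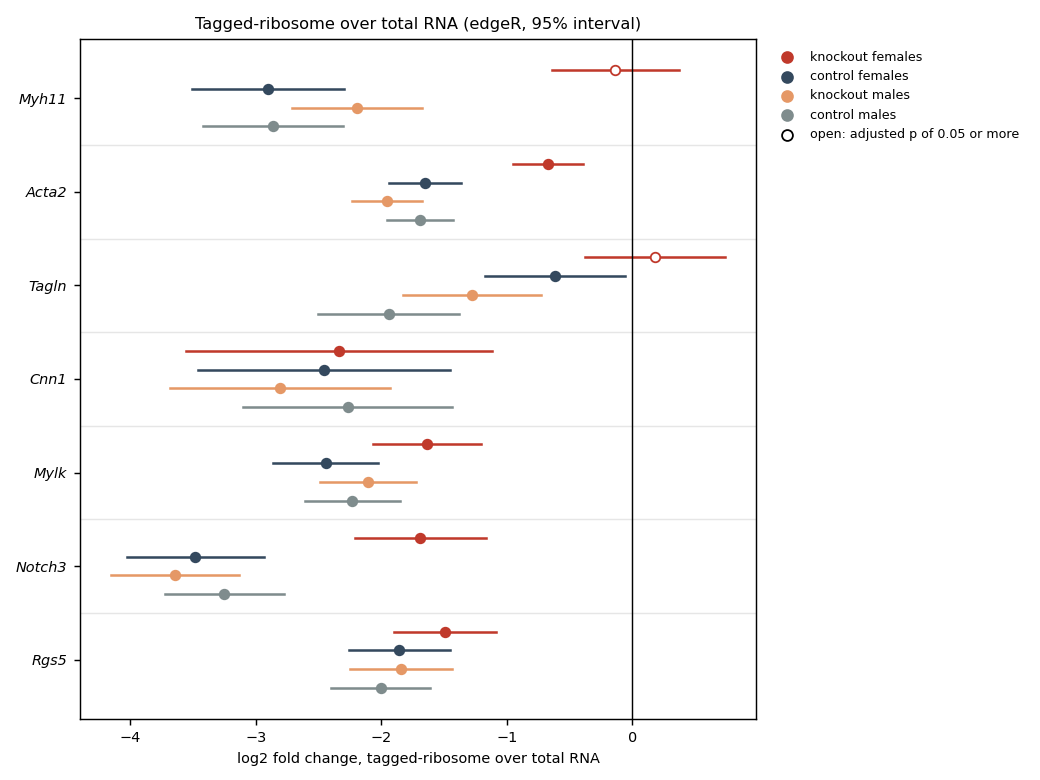
Log2 fold change of tagged-ribosome over total RNA for each gene (x axis), in 4 rows per gene for labelled knockout females, control females, labelled knockout males and control males; points are edgeR estimates from 7 libraries per group, lines their 95% intervals, and open points did not pass an adjusted p of 0.05. Points lie left of 0 in controls and in labelled knockout males, from -3.65 to -0.62, while Myh11 and Tagln lie near 0 in labelled knockout females.

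In control females the log2 fold change of tagged-ribosome over total RNA was -3.48 for Notch3, -2.90 for Myh11, -2.46 for Cnn1, -2.44 for Mylk, -1.86 for Rgs5, -1.65 for Acta2 and -0.62 for Tagln. All 7 genes passed the edgeR quasi-likelihood test at an adjusted p under 0.05, where 38.1% of the 12546 genes tested were called lower. Notch3 and Cnn1 fell short of the count filter in tagged-ribosome RNA alone and entered this fit through total RNA, so their calls are a description in each of the 4 groups. The other 5 genes passed that filter, and all 5 were lower, as were 27.1% of the 9098 genes that passed it. Among the 5, Myh11 passed it through the female labelled knockouts, where it is high in tagged-ribosome RNA. Notch3 stood at 8.94% of their level in total RNA (95% interval 6.12 to 13.1%), and Acta2, smooth muscle alpha-actin, at 31.8% (26.1 to 38.8%). Tagln, which encodes the actin-binding protein transgelin, was the weakest call (SE 0.28, adjusted p = 0.0442), with 2 of 7 tagged-ribosome libraries below every total library. With the mouse as a block its value was -0.59 and it missed the threshold (adjusted p = 0.0746), and without the total libraries in which over 19% of counted reads lay outside genes it was also lost (-0.56, adjusted p = 0.0811), as it was when any of 7 libraries was left out.

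Control males gave the same 7 calls, where 38.6% of genes were lower. Notch3 stood at -3.25, Myh11, the smooth muscle myosin heavy chain, at -2.86, Cnn1, the actin-binding protein calponin 1, at -2.27 and Mylk, the myosin light chain kinase, at -2.23. Rgs5 followed at -2.01, Tagln at -1.94 and Acta2 at -1.69, with adjusted p between 3.55e-18 and 2.99e-06. In every one of these 7 genes, Notch3 and Cnn1 included, all 7 tagged-ribosome libraries lay below all 7 total libraries. How many of all genes separate so fully was not counted. Of the 12546 genes in this contrast 8870 were called in either direction.

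Labelled knockout males had all 7 genes lower in tagged-ribosome RNA, where 37.1% of genes were called lower, with log2 values from -3.65 for Notch3 to -1.28 for Tagln. Labelled knockout females did not. There 5 of 7 genes were lower, against 38.2% of all genes: Cnn1 by -2.34, Notch3 by -1.69, Mylk by -1.64, Rgs5 by -1.49 and Acta2 by -0.67 (adjusted p between 1.84e-09 and 0.000745). Without Notch3 and Cnn1 that is 3 of 5 genes, beside 31.5% of the genes that passed the filter in tagged-ribosome RNA. Myh11 is among those 5 and passed that filter through this group, where it is high, so the count is a description. Myh11 was at -0.14 (95% interval -0.64 to 0.37, adjusted p = 0.648) and Tagln at 0.18 (-0.38 to 0.74, adjusted p = 0.577).

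The centre of all genes in these contrasts depended on the scaling. With TMM the median over all genes was -0.25 in labelled knockout females, -0.12 in control females, -0.06 in labelled knockout males and -0.09 in control males. In that order of groups 41.1, 44.1, 45.6 and 45.4% of called genes were higher. With relative log expression (RLE) size factors the medians were -0.39, -0.35, -0.31 and -0.32 and the shares 33.9, 32.9, 31.5 and 33.05%. Measured from the median of all genes, the median of the 7 genes was -1.25 in labelled knockout females under TMM and -1.23 under RLE, and in control females it was -2.32 and -2.33.

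Markers of other non-fibre cells were also low in tagged-ribosome RNA. In control females all 8 endothelial genes and all 11 fibroblast genes that passed the filter in tagged-ribosome RNA were lower, with 5 of 5 immune, 5 of 5 adipocyte and 3 of 3 Schwann cell genes, beside the 27.1% of all genes. In labelled knockout females the counts of lower genes were the same except for immune genes, at 4 of 5. Fast-fibre genes, which mark the cells with the Mlc1f promoter, went the other way, with 12 of 12 higher in labelled knockout females and 10 of 12 in control females. Of 15 further pericyte genes only 3 passed that filter, and all 3 were lower in labelled knockout females and in control females. Another 10, Pdgfrb and Kcnj8 among them, entered the fit through total RNA and are described by their values only. Pdgfrb, the receptor through which pericytes are recruited, averaged 4.145 ± 2.95 CPM in tagged-ribosome RNA and 24.4 ± 2.61 CPM in total RNA of labelled knockout females (SD, n = 7). Its log2 fold change there was -2.76, and in control females -2.73. Kcnj8, a subunit of the vascular ATP-sensitive potassium channel, was at -2.22 in labelled knockout females and -3.23 in control females.

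In tagged-ribosome RNA of females, 3 of the 5 genes that could be tested were higher in labelled knockouts than in controls. Of all 9098 genes 8.44% were called higher. Among the 5, Myh11 was furthest apart. Myh11 passed the count filter through the female labelled knockouts, the group where it is high. In control females it reached at most 5.57 CPM and in control males 4.71 CPM, and the median of male labelled knockouts was 4.155 CPM. Its calls in tagged-ribosome RNA, here and between the sexes below, are therefore a description. The counts among the 5 genes that include it are a description too. Myh11 had 9.10 CPM at the lowest, 16.4 at the median and 41.0 at the highest in labelled knockouts, against 0, 2.99 and 5.57 CPM in controls. Every labelled knockout lay above every control, with libraries 2, 12 and 5 highest. These levels rest on 4 to 24 counts per labelled knockout library and 0 to 17 per control library, 93 counts in all against 34. The log2 fold change was 2.67 (SE 0.38, 95% interval 1.89 to 3.44, edgeR adjusted p = 9.28e-06), or 6.35-fold.

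Acta2 had 31.3, 58.2 and 84.1 CPM at the lowest, median and highest labelled knockout, against 19.4, 27.7 and 39.3 CPM in controls. Of the 7 labelled knockouts 6 lay above every control, and library 6, the shallowest, lay within the control range. The log2 fold change was 1.11 (SE 0.19, interval 0.73 to 1.497, adjusted p = 9.48e-05), or 2.16-fold. Tagln had 5.97, 18.2 and 35.2 CPM in labelled knockouts, against 3.20, 8.22 and 16.1 CPM in controls. The groups overlapped in both directions, with 4 of 7 labelled knockouts above every control. Its log2 fold change was 1.05 (SE 0.32, interval 0.40 to 1.71, adjusted p = 0.022). The Tagln call was lost without female labelled knockout 12 (adjusted p = 0.0736) and without control 15 or 17 (0.0587 and 0.0634), and leaving out tagged-ribosome libraries under 0.75 M counts also ended it (0.105).

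**Figure D2:**
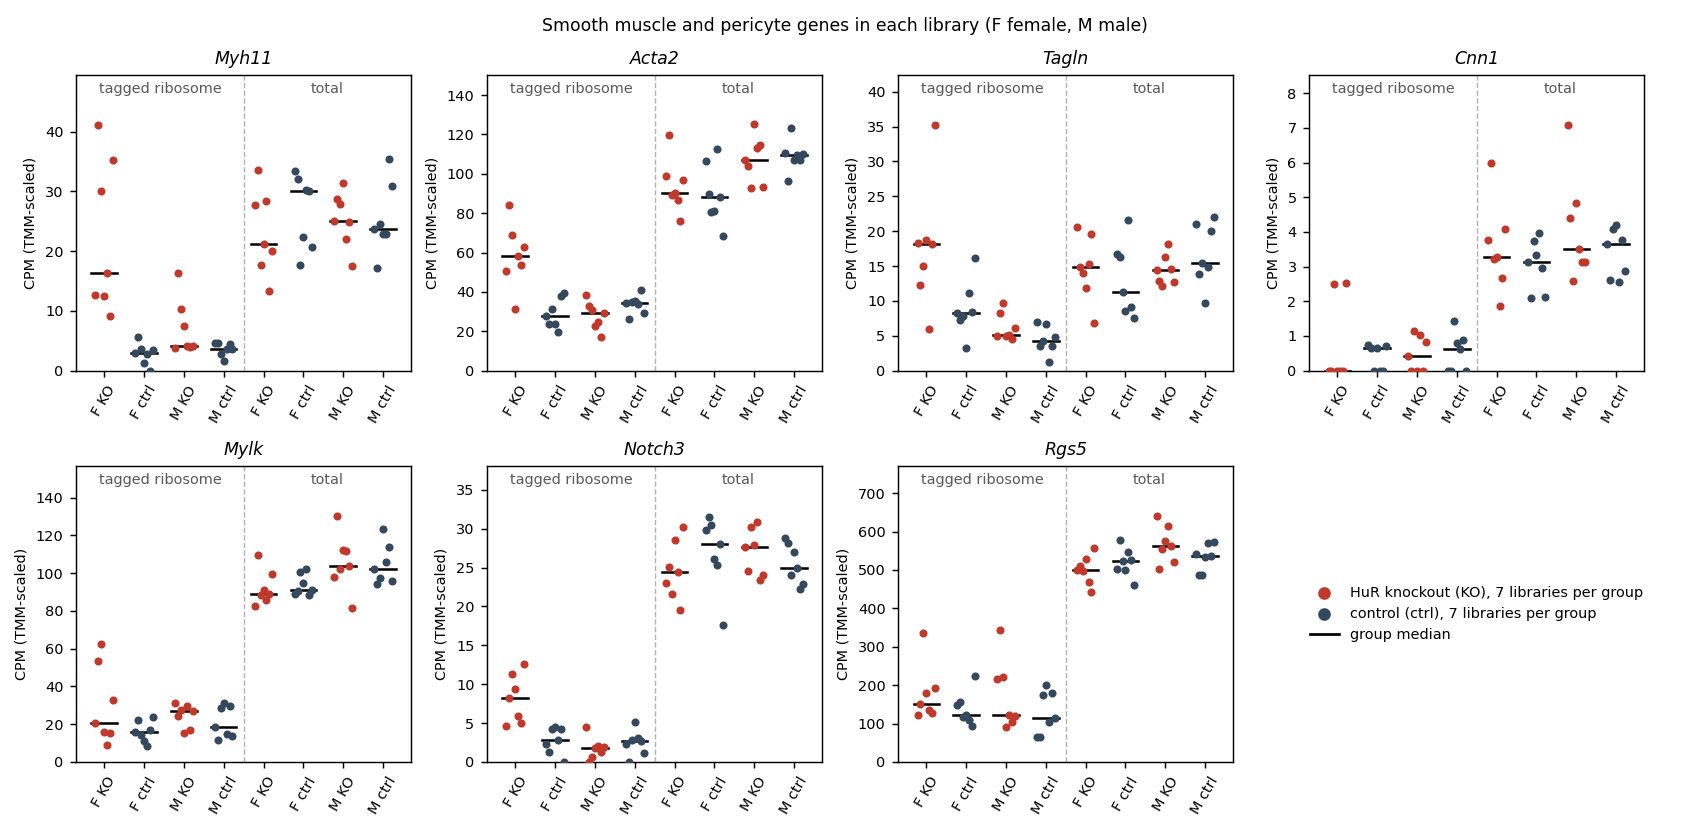
TMM-scaled CPM (y axis) of each gene in every library, with a panel per gene; columns run from tagged-ribosome to total RNA and, within each, from females to males with labelled knockouts (KO, red) left of controls (ctrl, dark), and the black line is the median of 7 libraries. The female labelled knockouts stand above the female controls in tagged-ribosome RNA for Myh11 and Notch3 with no overlap, at 9.10 to 41.0 against 0 to 5.57 CPM and 4.58 to 12.6 against 0 to 4.48 CPM.

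The other tested genes did not pass. Mylk had 8.95, 20.6 and 62.7 CPM in female labelled knockouts, against 8.33, 15.7 and 23.8 CPM in controls. Libraries 5, 2 and 12 stood above every control and the remaining 4 lay within the control range. The log2 fold change was 0.87 (interval 0.18 to 1.56, adjusted p = 0.0751), and Mylk did pass in DESeq2 (0.95, adjusted p = 0.0425) and in a fit of all 56 libraries (0.78, adjusted p = 0.0299). Rgs5 had 122, 152 and 337 CPM in labelled knockouts, against 93.1, 121 and 224 CPM in controls. Library 5 alone lay above every control, and the log2 fold change was 0.38 (interval -0.18 to 0.94, adjusted p = 0.362).

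Notch3 and Cnn1 were too low for the filter on tagged-ribosome counts. Notch3 had 4.58, 8.21 and 12.6 CPM in female labelled knockouts, against 0, 2.78 and 4.48 CPM in controls, from 3 to 9 counts and 0 to 7 counts per library. All 7 labelled knockouts lay above all 7 controls, by a narrow gap. In the fit of all 56 libraries, which Notch3 entered through its level in total RNA, its log2 fold change was 1.65 (SE 0.42, adjusted p = 0.00296). Cnn1 held 0 counts in 5 of 7 labelled knockouts and in 3 of 7 controls, 3 counts in all against 5, so no difference was detectable at this depth. The 5 genes tested had a median log2 fold change of 1.05, beside -0.02 over all genes.

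Markers of other cell types and of nuclear RNA moved in the same libraries, and the lists of the latter and of non-muscle myosins were chosen after values were seen. A listed gene can pass the count filter through the group where it is high. Which group did so was not counted, so the list counts in tagged-ribosome RNA here and below are a description. Of 12 endothelial genes 8 could be tested and all 8 were higher in female labelled knockouts, with summed levels of 147 to 548 CPM (median 291) against 113 to 231 CPM (median 141) in controls. Pecam1, an adhesion molecule of endothelial junctions, averaged 19.5 ± 8.51 CPM in labelled knockouts and 7.89 ± 2.55 CPM in controls. Of 12 fibroblast genes 10 of the 11 tested were higher, with Col1a2, a collagen chain, at 164 ± 76.2 CPM in labelled knockouts and 45.8 ± 11.9 CPM in controls.

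Mitochondrially encoded mRNAs were higher in 7 of 7 tested, at 6006 to 27660 summed CPM in female labelled knockouts against 1635 to 7179 in controls. Of nuclear long non-coding RNAs 4 of 4 tested were higher, at 806 to 6084 CPM against 228 to 931 CPM. Schwann cell genes gave 2 of 3 higher and immune genes 4 of 5, with the macrophage growth factor receptor Csf1r at 11.9 ± 11.3 CPM in labelled knockouts and 1.95 ± 1.80 CPM in controls. Fast-fibre genes gave 3 of 12 higher and adipocyte genes 0 of 5. None of the endothelial, fibroblast or immune genes listed was at 0 in all libraries of either group. The part of these changes in the values of the 7 genes was not tested beyond a covariate. With the summed mitochondrially encoded mRNA as a covariate Myh11 stayed called (1.89, adjusted p = 0.0348), Acta2 stayed called and Tagln did not (1.11, adjusted p = 0.22). Over all genes that covariate took the calls in either direction from 1533 to 508. The covariate itself differed between these groups, so its part and that of the labelled knockout cannot be told apart. Without and with it Tagln was at 1.05 and 1.11, with SE of 0.32 and 0.51.

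**Figure D3:**
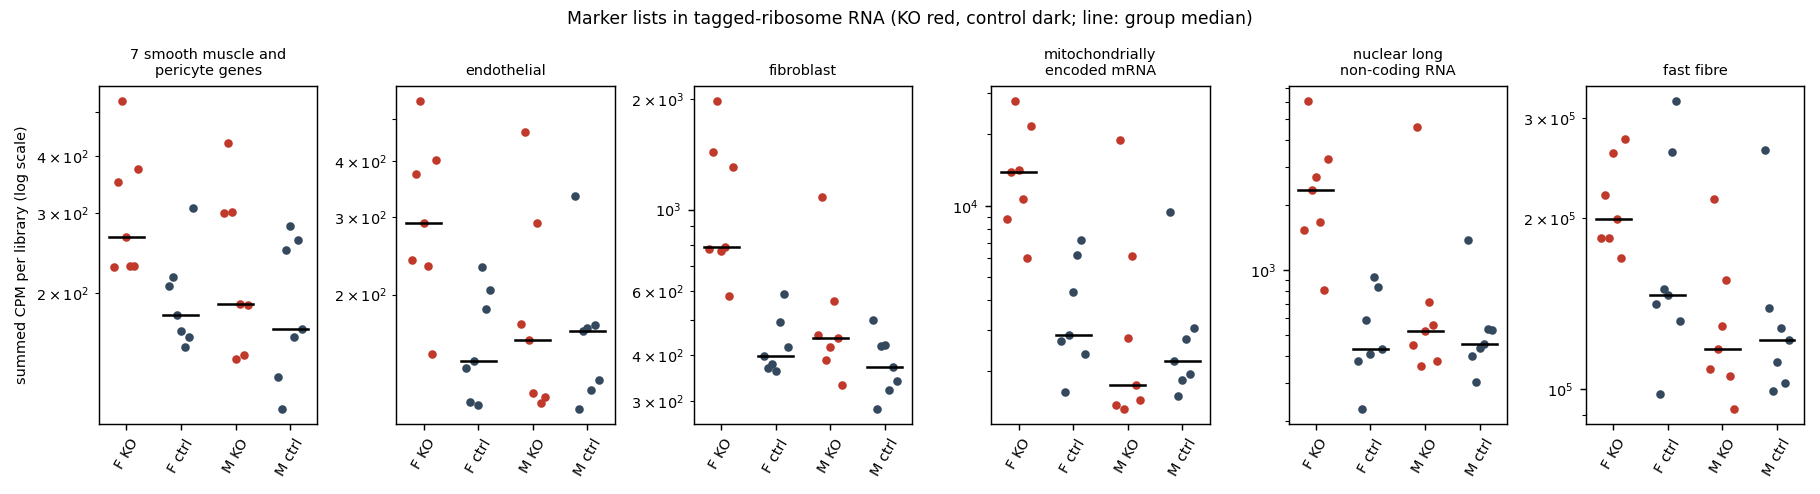
Summed CPM (y axis, log scale, separate scale per panel) of the 7 genes and of 5 marker lists in tagged-ribosome RNA; each point is a library, labelled knockouts (KO, red) stand left of controls (ctrl, dark) in each sex, and lines are medians of 7 libraries. The sum of the 7 genes ran from 228 to 528 CPM in female labelled knockouts and from 153 to 308 CPM in female controls, and the nuclear non-coding RNAs from 806 to 6084 and from 228 to 931 CPM.

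Pericyte and contractile genes were counted in the same comparison. Of 15 further pericyte genes only 3 could be tested in tagged-ribosome RNA, and Mcam, an adhesion molecule of mural and endothelial cells, was called at 52.4 ± 9.93 CPM in labelled knockouts and 24.5 ± 11.35 CPM in controls (log2 0.98, adjusted p = 0.000502). Of 18 contractile and actin cytoskeleton genes 6 of 16 tested were higher and 0 lower. Of the same 16, 7 were higher and 7 lower in tagged-ribosome than in total RNA of control females. The list is therefore not one of non-fibre markers alone. Flna, the actin cross-linker filamin A, averaged 37.5 ± 17.2 CPM in labelled knockouts and 10.5 ± 3.29 CPM in controls, and Lmod1, an actin nucleator of smooth muscle, 35.5 ± 15.55 CPM in labelled knockouts and 15.6 ± 6.22 CPM in controls. Of 3 non-muscle myosin heavy chains tested, Myh9 and Myh10 were called higher, by 2.67 and 1.22 on the log2 scale, beside the 2.67 of Myh11.

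Genes of the Notch pathway and of light chain phosphorylation were also counted. Of 16 Notch pathway genes 8 could be tested and 3 were higher in female labelled knockouts: Nrarp, a feedback inhibitor that Notch induces (1.54, adjusted p = 0.001), the ligand Jag2 (1.22, adjusted p = 0.00125) and the target Hes1 (0.91, adjusted p = 0.00265). Of 16 genes that set light chain phosphorylation 1 of 14 tested was higher and 4 lower, where 768 of all 9098 genes were higher and 765 lower. Rock1, a kinase that inhibits myosin phosphatase, averaged 109.7 ± 21.4 CPM in labelled knockouts and 41.1 ± 5.36 CPM in controls, while Ppp1cb, the catalytic subunit of that phosphatase, averaged 96.3 ± 12.1 CPM in labelled knockouts and 159.5 ± 43.4 CPM in controls. Of 11 regulators around serum response factor 0 of 9 tested passed, and of 17 G protein signalling genes near Rgs5 1 of 8 did, Rgs12 (1.08, adjusted p = 0.0248).

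In tagged-ribosome RNA of males 0 of the 5 tested genes passed, and 0 had an unadjusted p under 0.05, where edgeR called 8.96% of all genes. Myh11 had 3.71, 4.155 and 16.4 CPM in labelled knockouts, against 1.57, 3.69 and 4.71 CPM in controls. The highest value is male labelled knockout 2, where it stands for 2 counts. The log2 fold change of Myh11 was 0.71 (interval -0.06 to 1.49, adjusted p = 0.264). Acta2 had 17, 29.4 and 38.3 CPM in labelled knockouts, against 26.5, 34.6 and 41.2 CPM in controls, and its log2 value of -0.28 ran the other way (interval -0.63 to 0.08, adjusted p = 0.354). Tagln was at 0.47 (-0.21 to 1.16), Rgs5 at 0.29 (-0.25 to 0.84) and Mylk at 0.16 (-0.41 to 0.74). Endothelial genes gave 0 of 8 and fibroblast genes 0 of 11 in this contrast.

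In total RNA 0 of 7 genes differed by the test between labelled knockouts and controls in females, where 8.49% of all genes were called, and 0 of 7 in males, where 14.2% were. None had an unadjusted p under 0.05 in either sex, and DESeq2 called 0 as well. Myh11 had 13.4, 21.2 and 33.7 CPM in total RNA of female labelled knockouts, against 17.7, 30.05 and 33.5 CPM in female controls. The female groups overlapped over nearly their whole ranges, and the log2 fold change was -0.22 (interval -0.58 to 0.14). In males Myh11 had 17.5, 25.1 and 31.4 CPM in labelled knockouts, against 17.1, 23.7 and 35.4 CPM in controls, with a log2 value of 0.02 (-0.34 to 0.38).

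**Figure D4:**
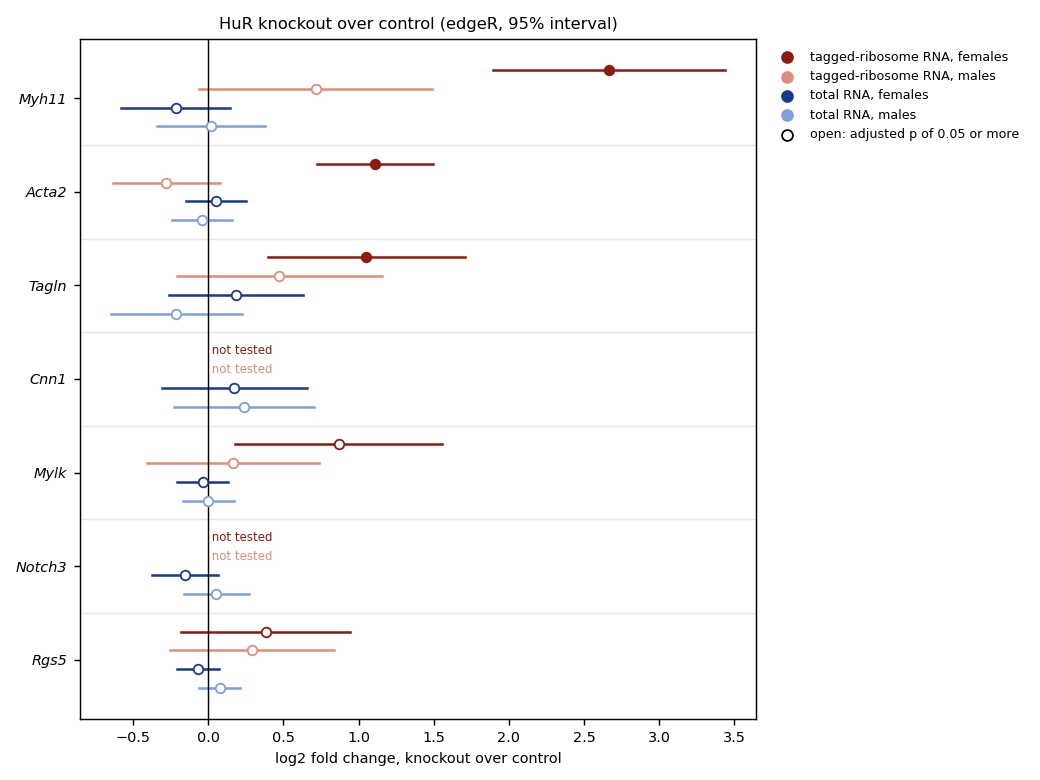
Log2 fold change of labelled knockout over control (x axis) for each gene in 4 rows, tagged-ribosome RNA of females and of males and total RNA of females and of males; points are edgeR estimates from 7 libraries per group, lines their 95% intervals, and open points did not pass an adjusted p of 0.05. In total RNA every point lies between -0.22 and 0.24, and in tagged-ribosome RNA of females Myh11 lies at 2.67.

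The intervals in total RNA were narrow for the abundant genes. Rgs5 had 442, 501 and 557 CPM in female labelled knockouts, against 461, 524 and 579 CPM in female controls, a log2 value of -0.07 (interval -0.21 to 0.07). Mylk had 82.8, 88.9 and 109.8 CPM in female labelled knockouts, against 88.5, 91.0 and 102 CPM in female controls, a log2 value of -0.04 (-0.20 to 0.13). For these genes a change of 1.3-fold, that of Rgs5 in tagged-ribosome RNA of females, lies outside the interval in total RNA of females. The scarcest gene, Cnn1, had 1.86, 3.28 and 5.98 CPM in female labelled knockouts and 2.10, 3.14 and 3.97 CPM in female controls, and its interval of -0.31 to 0.66 is wide. In a bulk sample fewer cells of a type and less RNA per cell cannot be told apart.

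Acta2, Tagln and Notch3 in total RNA gave log2 values of 0.05 (interval -0.15 to 0.25), 0.19 (-0.26 to 0.63) and -0.16 (-0.38 to 0.06) in females and of -0.04 (-0.24 to 0.16), -0.21 (-0.65 to 0.22) and 0.06 (-0.16 to 0.27) in males. Other vessel markers were counted beside them. Of 13 pericyte genes tested in total RNA 1 was higher in female labelled knockouts, Mcam at 73.2 ± 16.1 CPM against 54.1 ± 6.14 CPM in controls, and 0 in males. Of 12 endothelial genes 0 were higher and 1 lower in females, and 0 passed in males. Fibroblast genes behaved otherwise, with 7 of 12 higher in females and 10 of 12 in males. Of all 12860 genes 488 were called higher in females and 878 in males.

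The difference between the RNA types in the effect of the labelled knockout was tested directly. In females 3 of 7 genes passed, where 1.85% of 12546 genes were called higher. The log2 effect in tagged-ribosome RNA minus that in total RNA was 2.77 for Myh11 (SE 0.42, adjusted p = 9.47e-05), 1.80 for Notch3 (SE 0.44, adjusted p = 0.0149) and 0.98 for Acta2 (SE 0.20, adjusted p = 0.00366). Notch3 and Cnn1 entered this fit through total RNA, so the Notch3 call is a description. Mylk was at 0.81 (adjusted p = 0.136), Tagln at 0.80 (0.269), Rgs5 at 0.36 (0.526) and Cnn1 at 0.12 (0.974). Notch3 lost its call without female control 15 or female labelled knockout 5 in tagged-ribosome RNA (adjusted p = 0.0797 and 0.0512) and without libraries under 0.75 M counts (0.0748). Other lists moved in this contrast too, with 0 genes lower. Higher were 7 of 12 endothelial, 4 of 12 fibroblast and 3 of 7 Schwann cell genes. So were 5 of 8 mitochondrially encoded mRNAs and 5 of 6 nuclear long non-coding RNAs. Of 13 pericyte and 10 immune genes 0 passed. From these lists 4 endothelial, 1 fibroblast, 4 Schwann cell, 10 pericyte and 5 immune genes entered the fit only through total RNA. So did 1 mitochondrially encoded mRNA and 2 nuclear long non-coding RNAs, and calls among such genes are a description. The part of these lists in the values of the 7 genes was not tested. With RLE size factors 70.7% of the called genes in this contrast were higher, against 53.5% with TMM. In males 0 of 7 passed, with 0 at an unadjusted p under 0.05, where 0.128% of all genes were called by edgeR, and DESeq2 called 0 of the 7.

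The sexes differed in the effect of the labelled knockout in tagged-ribosome RNA for 2 of 5 genes, where 1.54% of all genes were called lower. Myh11, which is among them, passed the count filter through the female labelled knockouts, so this count is a description. The effect in males minus that in females was -1.39 for Acta2 (SE 0.26, interval -1.91 to -0.87, adjusted p = 0.00323) and -1.95 for Myh11 (SE 0.56, interval -3.08 to -0.82, adjusted p = 0.0412). Mylk, Tagln and Rgs5 were at -0.70, -0.58 and -0.09 and did not pass. The Acta2 call held in all 28 fits that left out 1 library, and the Myh11 call was lost in 16 of them, with adjusted p up to 0.0807. With the mitochondrially encoded mRNA level as a covariate neither passed (-1.34, adjusted p = 0.0798, and -1.14, adjusted p = 0.613). Without and with the covariate the SE of Acta2 was 0.26 and 0.335. The covariate differed between the female groups, so its part and that of the labelled knockout cannot be told apart. With that covariate edgeR called 23 of 9098 genes in this contrast, against 312 without it. In total RNA 0 of 7 genes passed, with 0 at an unadjusted p under 0.05 and 0 of all 12860 genes called by edgeR, while DESeq2 called 22 genes, none of them among the 7.

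In tagged-ribosome RNA of labelled knockouts 3 of 5 genes were lower in males, where 17.2% of all genes were. Myh11 is among them and passed the count filter through the females compared here, so this count is a description. Myh11 was lower by -1.98, Tagln by -1.57 and Acta2 by -1.16 (adjusted p = 8.28e-05, 0.00055 and 3.19e-05), and 5, 4 and 5 of the 7 males lay below every female. Also lower in these males were 11 of 11 fibroblast genes, 6 of 8 endothelial, 4 of 5 immune, 7 of 12 fast-fibre and 7 of 7 mitochondrially encoded genes. With the mitochondrially encoded mRNA level as a covariate the Myh11 and Tagln calls were lost (-1.11, adjusted p = 0.36, and -1.64, adjusted p = 0.113). Over all genes that covariate took the calls in either direction from 3063 to 225. The covariate differed between these males and females, so its part and that of sex cannot be told apart. The SE of Tagln was 0.33 without it and 0.55 with it. Among controls 0 of 5 passed, where 7.63% of all genes did. Tagln came nearest, at 1.23, 4.29 and 6.91 CPM in control males against 3.20, 8.22 and 16.1 CPM in control females (log2 -0.99, adjusted p = 0.0651), and passed when female control 17 or male control 20 or 23 was left out. In total RNA 0 of 7 differed between the sexes in controls or in labelled knockouts, where 8.7 and 2.86% of all genes did. Acta2 came nearest in controls, at 96.4, 109.5 and 123 CPM in males against 68.2, 88.0 and 112 CPM in females (log2 0.27, adjusted p = 0.0786), and passed without female control 14 or 18.

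Across the 8 groups the order of medians followed RNA type. Rgs5 had medians of 114 to 152 CPM in the 4 groups of tagged-ribosome RNA and of 501 to 562 CPM in the 4 groups of total RNA, and no comparison within an RNA type passed the test. Acta2 had a median of 58.2 CPM in tagged-ribosome RNA of female labelled knockouts, of 27.7 to 34.6 CPM in the other 3 groups of that RNA and of 88.0 to 109.5 CPM in total RNA. Myh11 followed the same order, with medians of 16.4 CPM, 2.99 to 4.155 CPM and 21.2 to 30.05 CPM. Tagln was the exception, since female labelled knockouts had a median of 18.2 CPM in tagged-ribosome RNA, above the medians of 11.2 to 15.45 CPM in total RNA, with overlapping ranges.

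The 7 genes rose and fell together only in part among mice of a group. Over the 28 total libraries, as deviations from the group means on the log2 scale, Acta2 had a Pearson correlation of 0.79 with the mean of the other 6, Myh11 of 0.53, Rgs5 of 0.51, Cnn1 of 0.47, Notch3 of 0.34, Mylk of 0.32 and Tagln of 0.17. The highest pairs were Acta2 with Myh11 at 0.64 and with Cnn1 at 0.57, and Notch3 with Rgs5 at 0.55. These libraries share depth and mice, and no p is given. Among 9824 genes ranked by their correlation with the mean of the 7, those near the top included Stk38l (0.68), Tjp1 (0.65), Esrra (0.64), Rrnad1 (0.62), Myl9 (0.62), Stard9 (0.62) and Ednra (0.60). Myl9 encodes the light chain that Mylk phosphorylates, and Ednra an endothelin receptor of vascular smooth muscle.

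In tagged-ribosome RNA, over 28 libraries and the 5 genes tested there, Cavin2, a coat protein of caveolae, was most alike at 0.88. Cmklr1, Rnase4, Ets1, Epb41l2, Cald1, Lima1 and Cnn3 followed at 0.79 to 0.82. Within the 5, Mylk had a correlation of 0.70 with the mean of the other 4, Rgs5 of 0.61, Acta2 of 0.48, Myh11 of 0.32 and Tagln of 0.31. Depth differed among these libraries and their counts were low, so the values describe these libraries.

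Read assignment was checked against the GENCODE gene models of build GRCm38. None of the 50-base stretches within the last 500 transcript bases of the 7 genes occurred in another gene. Exons of Tagln overlap Pcsk7 and Gm48529, those of Notch3 overlap Gm17276 and those of Mylk overlap E130310I04Rik and Gm21691, each on the opposite strand. Whether counting used strand is not given in the sources used here, so reads of these 3 genes and of their antisense partners could not be told apart.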

How the data were processed

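Counts per gene and library were deposited as whole numbers. UMI-tools, STAR, HTSeq and DESeq2 1.40.1 (R 4.3.0) are the authors' tools per the submitters' processing notes, which give GRCm39 as the build. Per the labels, libraries were made with the Lexogen Quant-Seq kit, which reads transcript 3′ ends, with 50 bp forward reads. The 5 summary lines of HTSeq stayed out of library sizes and tests, and 51898 of 57010 identifiers matched a symbol.

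Tests used edgeR 4.0.16 under R 4.3.3 (filterByExpr, TMM, quasi-likelihood F-test). Tagged-ribosome and total libraries were fitted apart with 4 group means each, and contrasts of RNA types in 1 fit of 56 libraries with 8 group means. Calls need an adjusted p (Benjamini-Hochberg, over all genes of a contrast) under 0.05. CPM were computed here from TMM-scaled library sizes. Intervals are 95%. Deviations used log2 CPM with a prior count of 2. Fits were tested on simulated counts.

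The members and gene lists were chosen with earlier results of these data known, and 2 lists were added after values were seen. Beside the 7 genes and Elavl1, the text names up to 4 called genes of lowest adjusted p per list and comparison, and the 8 genes of at least 5 CPM most alike in each RNA type. Not every gene that the likeness rule selects is reported here. The alternatives were RLE size factors, no filter, DESeq2 1.42.0, the 14 libraries compared alone, all 56 libraries, the mouse as a replicate block, leaving out tagged-ribosome libraries under 0.75 M counts or the total ones in which over 19% of counted reads lay outside genes, the mitochondrially encoded mRNA level as a covariate, and leaving out each library in turn. Libraries of a sex and genotype that carry the same number in the labels were taken to come from 1 mouse. Deviations of such pairs correlated by 0.208 on average in female labelled knockouts, 0.0468 in female controls, 0.0848 in male labelled knockouts and -0.239 in male controls, so the pairing rests on the labels.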

Additional observations from a re-analysis of the deposited data

Results flagged for a closer look

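Rgs5 reached 337.1 CPM in tagged-ribosome RNA of female labelled knockout 5, far from the other 6 libraries of its group, whose values ran from 122 to 194 CPM. Of 56 groups of 7 libraries tested for such a gap, chance flags about 1 in 20. The same library was the highest of its group for Mylk, at 62.7 CPM, and for the summed endothelial genes, at 548 CPM, which was not tested further.

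For Myh11, Notch3 and Acta2 the effect of the labelled knockout differed between RNA types in females, by a test of the difference itself. The log2 values, tagged-ribosome minus total RNA, were 2.77, 1.80 and 0.98. Notch3 entered that fit through total RNA, so its call is a description. The effect differed between the sexes in tagged-ribosome RNA for Myh11 (-1.95) and Acta2 (-1.39, males minus females). There Myh11 passed the count filter through the female labelled knockouts. In tagged-ribosome RNA all libraries of female labelled knockouts were above all female controls for Myh11 and Notch3, and 6 of 7 for Acta2. For Notch3 the gap was narrow, at 4.58 against 4.48 CPM. The share of all genes that separate in this way was not counted.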

How the results depend on the processing

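Of the 16 counts of called genes, those for tagged-ribosome RNA changed most. In females 3 genes were higher in labelled knockouts, 5 with all 56 libraries in the fit and 5 with no filter, where Notch3 and Mylk joined, and 1 with the 14 libraries alone, where 3 of the 7 could be tested. The count for the difference between sexes was 2, and 0 with the mitochondrially encoded mRNA level as a covariate and 1 without tagged-ribosome libraries under 0.75 M counts. The count for males over females among labelled knockouts was 3, and 1 with the covariate. In these contrasts the covariate took the calls over all genes from 312 to 23 and from 3063 to 225. The covariate itself differed between the groups compared, so its part and theirs cannot be told apart. Leaving out 1 library gave 2 to 4 genes for the female knockout effect, 2 to 3 for its difference between RNA types, 1 to 2 for the difference between sexes and 6 to 7 for tagged-ribosome over total RNA in control females. It gave 0 to 1 for males over females in controls, in tagged-ribosome and in total RNA. No called gene changed sign under any alternative; the sign of genes that were not called was not compared. Myh11 and Acta2 kept their female calls in tagged-ribosome RNA wherever they could be tested, at 1.89 to 3.02 and 1.004 to 1.22. In the 14 female libraries alone Myh11 fell short of the count filter and could not be tested. With the mouse as a replicate block, Tagln in control females missed the threshold (-0.59, adjusted p = 0.0746), and no other call among the 7 changed. For calls lost with a library left out the cause was not tested. Depth limits the tagged-ribosome values, since Myh11 rests on at most 24 and Notch3 on at most 13 counts per library and Cnn1 on at most 4.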
